A study of Meriones unguiculatus and Mus musculus with 2 samples.

Results

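Elastic fibres give skin its recoil. They form when tropoelastin, the soluble precursor, is laid down on a scaffold of fibrillin microfibrils and cross-linked through its lysines by lysyl oxidases. The fibulins Fbln5 and Efemp2 (fibulin-4) bring tropoelastin, the cross-linking enzymes and the microfibrils together, and the microfibril-associated glycoproteins Mfap2, Mfap4 and Mfap5 sit on the scaffold. Damaged elastic fibres are known to be replaced slowly in adult skin wounds.

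The 10 genes described here (Eln, Fbn1, Fbn2, Fbln1, Fbln2, Fbln5, Mfap2, Mfap4, Mfap5 and Efemp2) were taken by gene name from a deposited table of 41214 mouse genes. All 10 were listed once, with a value in both libraries. RNA sequencing compared wounded skin of the Mongolian gerbil (Meriones unguiculatus) with that of the ICR mouse, an outbred stock. Both samples carry the tissue label wounded dermis and the treatment label wounding, and both were taken 3 days after the wound; genotype, age, sex and the number of animals behind each library are not stated in the labels. Each species had 1 library, so no difference below has a replicate check, a standard error or a p-value, and each describes these 2 libraries only.

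Values are the deposited FPKM, in which fragment counts are divided by transcript length and by the mapped total. A gerbil value was read as that of an assembled gerbil sequence matched to a mouse gene, with an expectation value that is 0 for the strongest matches and larger for weaker ones. The table held 40993 ICR and 21056 gerbil values, depth was unknown, and 20089 symbols, those with a value in each library and 1 FPKM or more in either, counted as measured. The fibroblast genes Col1a1 (567 FPKM in ICR, 203 in gerbil) and Col1a2 (502 and 1079) were abundant, and so were the epidermal keratins Krt5 (4284 and 11792) and Krt1 (2471 and 2469). Both libraries therefore held epidermal RNA.

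As deposited, the genes of the set differed in both directions, though all 10 lay on the ICR side under a scaling to ribosomal protein genes alone. Ribosomal protein genes were themselves listed unevenly in the 2 libraries, as given below. Elastin and Fbln5 were higher in the gerbil wound as deposited, Efemp2 and Fbln2 were lower, Mfap2 and Fbn2 were nearly level, and Fbn1 and Mfap5 were listed far lower on matches weaker than those of the other 8. Differences are log2(FPKM + 1) in gerbil minus ICR, and a difference of 2 or more (4-fold) was the size rule. By that rule 2 of the 10 genes were higher in gerbil, against 25.9% of all measured symbols and 9.77% of the 14068 protein-coding ones. In the other direction 3 of the 10 were lower, against 5.56% of all measured symbols and 7.41% of protein-coding ones. With 10 genes, each gene is a large share of the count, and nothing particular to the set is read from it. The median difference of the set was 0.24, against 0.87 over all measured symbols and 0.30 over protein-coding ones. Among the 8 genes matched with an expectation value of 0, 2 were at least 4-fold higher and 1 at least 4-fold lower, where 6.1% and 5.99% of protein-coding symbols matched as strongly were.

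**Figure D1:**
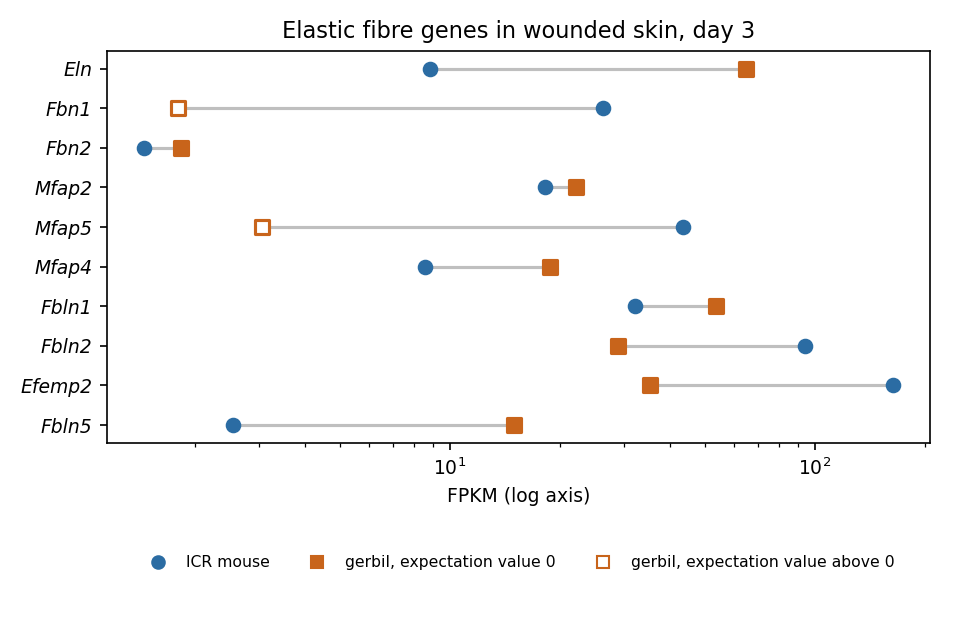
FPKM (log axis) of the 10 genes in the ICR mouse library (circles) and the gerbil library (squares), 1 library each, with open squares for gerbil matches with an expectation value above 0. Eln and Fbln5 lie to the right in gerbil, Efemp2 and Fbln2 to the left, and the open squares of Fbn1 and Mfap5 lie at 1.8 and 3.06 FPKM.

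Eln encodes tropoelastin, the elastic core of the fibre (chromosome 5, 134703781 to 134747241, minus strand, GRCm38). It was at 8.84 FPKM in the ICR mouse and 64.9 in the gerbil. It was thus the seventh most abundant of the 10 genes in ICR and the most abundant in gerbil. The difference was 2.74 on the log2 scale, or 6.70-fold with 1 FPKM added to each value. Among 14553 protein-coding symbols with both values, Eln stood at percentile 56.0 in ICR and 91.3 in gerbil. The match had an expectation value of 0, and no other mouse coding sequence was found to be related to Eln. The same gerbil value, to 2 decimals, was also listed for Selm (56.6 FPKM in ICR), which has no related bases with Eln.

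The coding sequence of Eln (2580 bases, 860 codons) has 36.3% glycine codons and 0.23% cysteine codons, whereas the other members range from 4.3% to 11.5% glycine and from 2.85% to 12.57% cysteine. Its closest ungapped internal repeat is shown because it holds the alanine-rich, lysine-bearing kind of segment at which tropoelastin is cross-linked. The copies, from the GENCODE M21 transcripts of GRCm38, lie at chr5:134718156-134719039 and chr5:134707639-134707871 on the minus strand, each across 2 exons. Capitals mark the 51 of 63 bases (81.0%) that the copies share.
Eln first copy: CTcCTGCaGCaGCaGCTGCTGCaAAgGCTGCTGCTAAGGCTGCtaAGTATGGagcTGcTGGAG
Eln second copy: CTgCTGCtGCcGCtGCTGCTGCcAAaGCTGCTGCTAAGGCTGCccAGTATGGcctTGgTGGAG
Of 20 whole codons, 13 encode alanine and 3 lysine in the first copy, and 12 and 2 in the second.

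The fibrillins build the microfibril scaffold. Their coding sequences are alike: the encoded proteins of 2873 (Fbn1) and 2907 residues (Fbn2) were identical at 70.1% of 2832 aligned residues, and each held 43 matches to the aspartate and asparagine hydroxylation pattern of calcium-binding EGF modules. Fbn1, the main fibrillin of adult tissue and the gene mutated in Marfan syndrome (chromosome 2, 125300594 to 125507993), was at 26.3 FPKM in ICR against 1.80 in gerbil, a difference of -3.29. Fbn2, the fibrillin prominent in development, was low in both libraries, at 1.45 and 1.83 FPKM, a difference of 0.21. Fbn1 was therefore 18.1 times as abundant as Fbn2 in ICR and 0.98 times in gerbil. Values this low are crowded in the gerbil column: 16.5% of gerbil values lay from 1 to under 2 FPKM, and none of those 3475 was listed for a single gene. With values listed to 2 decimals, so many in so narrow a range must mostly coincide. Sharing at this level therefore says nothing about a match. Only 6.77% of gerbil values were under 1 FPKM, against 42.7% of ICR values in the rows that had both.

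The Fbn1 match was not of the strongest kind. Its expectation value was 6e-103, although Fbn1 has a coding sequence of 8619 bases, and 538 of the 616 protein-coding symbols with at least 5000 coding bases (87.3%) were matched at 0. Fbn2, with 8721 coding bases, was matched at 0. The gerbil value of 1.80 was listed for 33 other genes, among them Gm9913, a predicted gene on the opposite strand of the same locus (125505089 to 125507881). Gm9913 was listed with nearly the same expectation value, 1e-103, and at 0.00 FPKM to 2 decimals in ICR. Its listed span covers 2442 exonic bases of the 11971-base Fbn1 transcript, including the first 164 coding bases, which are 1.90% of the Fbn1 coding sequence. The exons of Gm9913 itself were not looked up. Whether the gerbil value of Fbn1 comes from sequence at this 5′ end was not tested. The 164 coding bases (chr2:125505440-125505603, GRCm38, minus strand, 1 exon, GENCODE M21) are shown because they are the part of Fbn1 protein-coding sequence inside the span of Gm9913, with the start codon in capitals.
Fbn1: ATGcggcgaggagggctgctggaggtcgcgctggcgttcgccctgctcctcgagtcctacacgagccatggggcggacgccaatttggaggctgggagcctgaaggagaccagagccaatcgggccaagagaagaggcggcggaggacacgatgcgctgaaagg

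**Figure D2:**
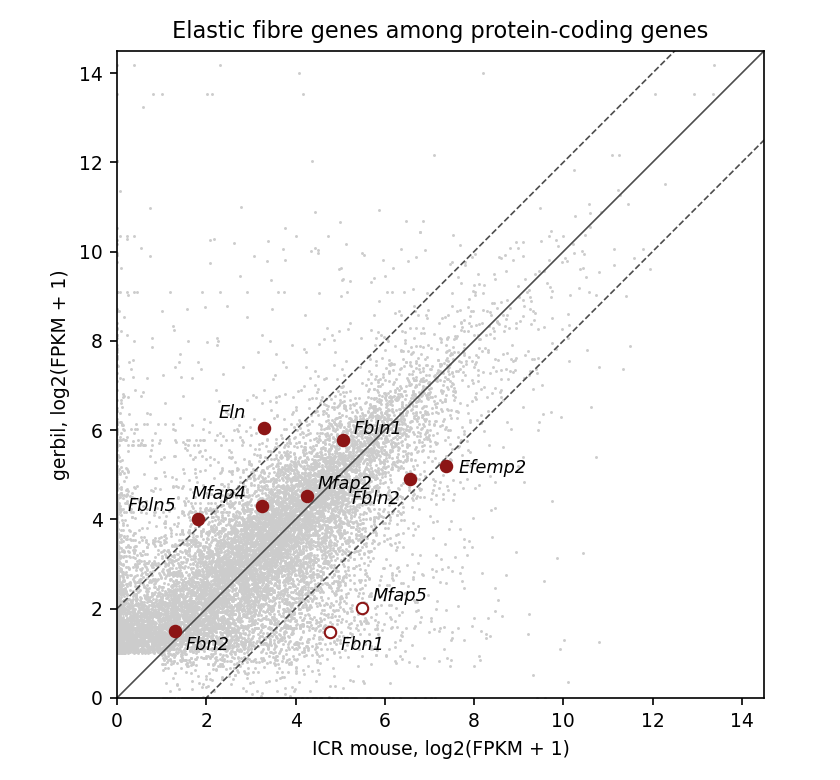
Each grey point is a protein-coding symbol, by log2(FPKM + 1) in ICR (horizontal) and gerbil (vertical), with the 10 genes in red (open where the expectation value is above 0), a solid line of equality and dashed lines at 4-fold. Eln and Fbln5 lie above the upper dashed line, Efemp2, Fbn1 and Mfap5 below the lower one, and Fbn1 and Mfap5 lie away from the band of points.

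The microfibril-associated proteins decorate fibrillin. Mfap2 (MAGP-1; chromosome 4, 141010418 to 141015984) was at 18.2 FPKM in ICR against 22.1 in gerbil, a difference of 0.27 on a match with an expectation value of 0. Its relative Mfap5 (MAGP-2; chromosome 6, 122505845 to 122529290) was at 43.7 FPKM in ICR against 3.06 in gerbil, a difference of -3.46. Mfap2 was thus nearly level as deposited, while Mfap5 was far lower in gerbil. Mfap5 had the weakest match of the set, with an expectation value of 5e-06, and only 21 of 14068 protein-coding symbols had one that large or larger. Its gerbil value was also listed for 6 other genes.

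Mfap2 and Mfap5 share a cysteine-containing stretch but little else. Their encoded proteins were identical at 33.8% of 145 aligned residues, and a nucleotide search found no match between their coding sequences. The most alike 30 codons, in which 18 encoded residues (60.0%) were identical, are shown to let the relatives be compared, with capitals at the 56 of 90 bases that they share. They come from GENCODE M21 at chr4:141015006-141015239 and chr6:122525974-122526811 (GRCm38, plus strand, 2 exons each).
Mfap2: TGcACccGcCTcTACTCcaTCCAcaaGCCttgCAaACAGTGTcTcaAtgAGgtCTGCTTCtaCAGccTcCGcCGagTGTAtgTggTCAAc
Mfap5: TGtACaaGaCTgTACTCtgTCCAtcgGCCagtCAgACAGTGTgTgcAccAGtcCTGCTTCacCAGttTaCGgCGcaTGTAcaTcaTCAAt
Despite the shared name, Mfap4 is a fibrinogen-related protein that binds elastin and fibrillin, and its closest mouse relative in the search was Fibcd1, not Mfap2 or Mfap5. Mfap4 (chromosome 11, 61485431 to 61488900) was at 8.53 FPKM in ICR against 18.8 in gerbil, a difference of 1.06, with a gerbil value listed for no other gene and an expectation value of 0. It overlaps 89 bases of Mapk7 on the opposite strand, at 10.8 FPKM in ICR against 0.32 in gerbil, and strand-specific counting is not stated in the sources used here.

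The 4 fibulins were matched with an expectation value of 0 and differed in both directions. Fbln5, which tethers tropoelastin to the scaffold and binds cell integrins (chromosome 12, 101746565 to 101819055), was at 2.54 FPKM in ICR against 15.0 in gerbil. The difference of 2.17 was the other one past 4-fold on the gerbil side, and Fbln5 moved from percentile 33.1 of coding symbols in ICR to 67.9 in gerbil. Efemp2, which recruits lysyl oxidase to tropoelastin (chromosome 19, 5473973 to 5481853), went the other way, at 164 FPKM in ICR against 35.4 in gerbil, a difference of -2.18. It was the most abundant of the 10 genes in ICR and the third in gerbil, at percentiles 97.1 and 84.2. Fbln5 and Efemp2 are near relatives, identical at 49.5% of 444 aligned residues, with 4 hydroxylation patterns each.

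The larger fibulins also parted. Fbln1 (chromosome 15, 85205949 to 85286535), which binds fibronectin and elastin-associated microfibrils, was at 32.2 FPKM in ICR against 53.5 in gerbil, a difference of 0.72 on a gerbil value listed for no other gene. Fbln2 (chromosome 6, 91212455 to 91272540), found at the elastin-microfibril interface and at basement membranes, was at 93.8 and 28.9 FPKM, a difference of -1.66 that did not reach 4-fold. Fbln2 was 2.91 times as abundant as Fbln1 in ICR and 0.54 times in gerbil. The encoded proteins were identical at 47.3% of 668 aligned residues, and each gene was the closest mouse relative of the other.

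The make-up of the set within each library does not depend on how the libraries are scaled to each other. Efemp2 (41.0%) and Fbln2 (23.5%) held most of the summed FPKM of the set in ICR, and Eln (26.5%) and Fbln1 (21.8%) held the largest shares in gerbil. The ratio of Efemp2 to Eln was 18.5 in ICR and 0.55 in gerbil, a 34.02-fold change in their balance. Efemp2 to Fbln5 went from 64.5 to 2.37. Eln to Fbln5 stood apart from these, since Fbln5 was 0.29 times as abundant as Eln in ICR and 0.23 times in gerbil. The sum over the 8 genes matched at 0 was 329 FPKM in ICR against 240 in gerbil, and the sum over all 10 was 399 and 245. FPKM is scaled to length, but the length used for a gerbil sequence is not given in the sources used here, which limits comparison of levels between genes in that library.

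**Figure D3:**
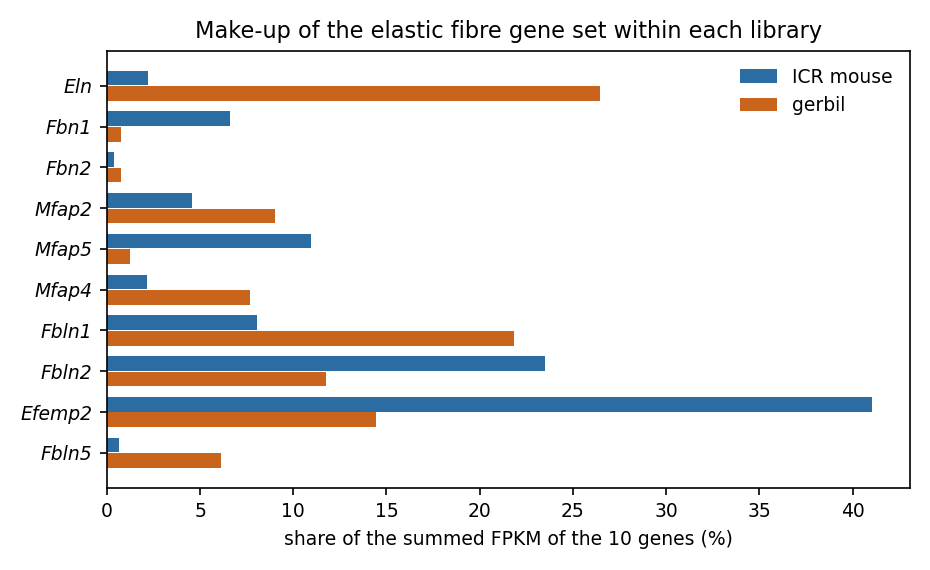
Share (%) of the summed FPKM of the 10 genes held by each gene, in ICR and in gerbil, 1 library each. Efemp2 holds 41.0% in ICR and 14.4% in gerbil, and Eln 2.21% and 26.5%.

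Directions between the libraries depended on the scaling for some genes. Scaling by a trimmed mean of log ratios lowered gerbil by 0.08 on the log2 scale and turned no gene. Scaling to 34 ribosomal protein and housekeeping genes lowered it by 0.80, which turned Fbln1, Fbn2 and Mfap2 to the ICR side and left Eln at 1.96 and Fbln5 at 1.44, both under 4-fold. Scaling to 75 ribosomal protein genes alone, of which 1 had a gerbil value of its own, lowered gerbil by 3.14 and put all 10 genes on the ICR side, with Eln at -0.23 and Fbln5 at -0.39. Efemp2, Fbln2, Fbn1 and Mfap5, lower in gerbil as deposited, stayed lower. Every scaling tried lowered gerbil, so none could have turned these genes.

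**Figure D4:**
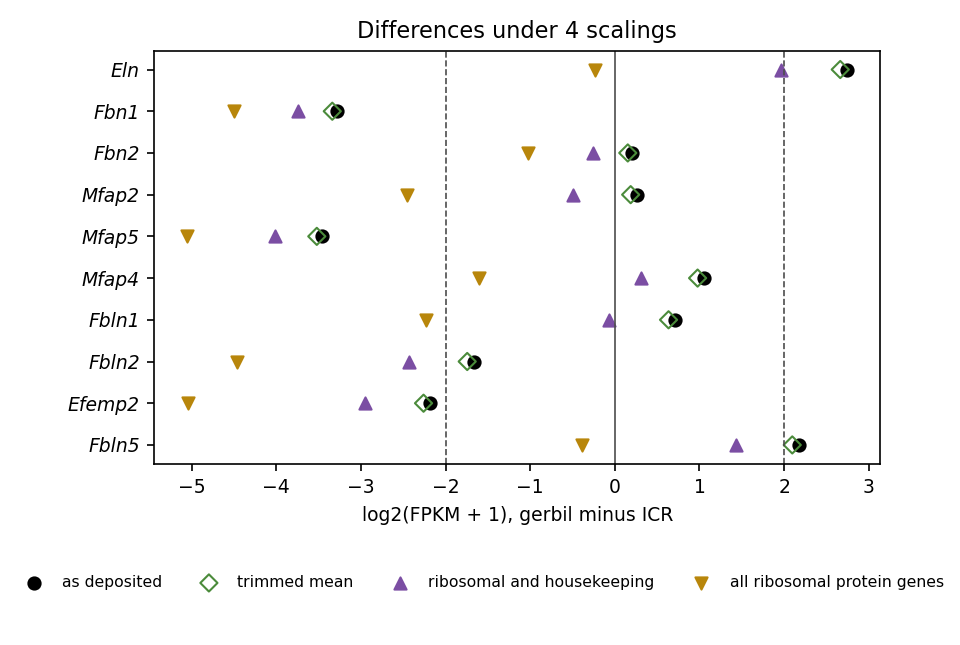
Difference in log2(FPKM + 1), gerbil minus ICR, of each gene as deposited and under 3 scalings, with a solid line at 0 and dashed lines at 4-fold. Points of Efemp2, Fbln2, Fbn1 and Mfap5 lie left of 0 throughout, and those of the other 6 genes cross 0 under the scaling to all ribosomal protein genes. The 3 scalings all lower gerbil, so points can only move left of the deposited ones.

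Gerbil values shared with other genes were looked up for each member. Fbln1 and Mfap4 shared theirs with none. Efemp2 shared its value with Rdx, Fbln2 with Pcnxl2, Pcnxl3 and Map3k11, Fbln5 with Gm17023, Pcid2 and Slc28a3, and Mfap2 with Ccdc109b, Gm3765, Pwp1 and Exosc7. In the search of mouse coding sequences, none of the genes that shared a value with a member was related to it, although Gm9913, which shares that of Fbn1, overlaps Fbn1 on the opposite strand as described above. Of 9329 gerbil values at 10 FPKM or more, 1719 were listed for 1 gene. Values listed to 2 decimals can be equal without a common match, and these cases were not told apart. The position of Fbn2, not given above, is chromosome 18, 58008623 to 58209926 on the minus strand. All 10 members are annotated by name in the gerbil RefSeq genome (Bangor_MerUng_6.1).

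Genes that assemble and cross-link the fibres were mostly higher in gerbil as deposited, but 9 were higher and 11 lower under the ribosomal and housekeeping scaling. Of 20 measured genes of 22, 15 were higher and 5 lower as deposited, with 5 at least 4-fold higher and 0 at least 4-fold lower; the 25.0% past 4-fold is close to the 25.9% of all measured symbols and above the 9.77% of protein-coding ones. The count of 5 was 8 with a pseudocount of 0.1 FPKM and 1 with a pseudocount of 5 FPKM. It was 1, with 1 at least 4-fold lower, under the ribosomal and housekeeping scaling, and 0, with 9 lower, under the scaling to all ribosomal protein genes. Their median was 0.60, and -0.11 and -1.66 under those scalings. Among cross-linking enzymes, Loxl1, the lysyl oxidase tied to elastin upkeep, was at 53.7 FPKM in ICR against 91.4 in gerbil, Lox at 47.3 and 31.1, and Loxl2 at 23.1 and 30.3. Loxl3 was at 8.17 and 18.95 FPKM, and Loxl4 at 2.04 and 15.6, past 4-fold. The ratio of Eln to Lox was 0.19 in ICR and 2.09 in gerbil.

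Latent TGF-beta binding proteins, which attach to fibrillin, split by member. Ltbp3 (4.63 and 22.1 FPKM) and Ltbp4 (3.14 and 17.4), a partner of Fbln5 in fibre assembly, were past 4-fold on the gerbil side, whereas Ltbp1 (7.36 and 2.84) and Ltbp2 (4.65 and 2.24) were lower. Emilin1, a glycoprotein at the elastin surface, was at 15.4 and 20.9 FPKM. Efemp1 (fibulin-3), the closest relative of Efemp2, was at 59.8 and 82.2, so that Efemp2 was 2.74 times as abundant as Efemp1 in ICR and 0.43 times in gerbil. Fkbp10, a chaperone of tropoelastin and collagen, was level at 54.0 and 55.3 FPKM. Glb1, whose splice form serves as the elastin-binding protein, was at 9.28 and 54.9, and Adamtsl2, a fibrillin-binding protein, at 0.33 and 9.52 on a match of 1e-99. Adamtsl5 was lower in gerbil, at 13.7 and 4.60. Emilin2 (64.6 FPKM in ICR) and Fbln7 (0.26) had no gerbil value.

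Integrins that bind fibrillins and fibulins had 9 measured genes of 9, with a median of 0.94. As deposited 1 was past 4-fold on the gerbil side and 2 on the ICR side, against 9.77% and 7.41% of protein-coding symbols. None was past 4-fold on the gerbil side under the trimmed mean scaling, with a pseudocount of 5 FPKM or under either ribosomal scaling. The median was 0.29 under the ribosomal and housekeeping scaling, and -1.21, with 0 of 9 higher, under the scaling to all ribosomal protein genes. Itga5 was at 22.4 FPKM in ICR against 96.8 in gerbil, and Itgb5 at 35.7 and 69.1. Itgav (14.6 and 1.97) was lower on a match of 3e-20, and Itgb1 was at 212 and 5.18, a gerbil value shared by 14 rows.

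Proteases that cut elastin had 8 measured genes of 12, with a median of 0.47 and 1 past 4-fold in each direction, against 9.77% higher and 7.41% lower among protein-coding symbols. Neither was past 4-fold with a pseudocount of 5 FPKM. The median was -0.32, with 0 higher and 1 lower past 4-fold, under the ribosomal and housekeeping scaling, and -2.26, with 0 and 5, under the scaling to all ribosomal protein genes. Mmp12, macrophage elastase, was lower in gerbil, at 20.97 FPKM in ICR against 4.36 in gerbil. Elane, neutrophil elastase, was at 0.067 and 3.81 FPKM, a low value in both. The gelatinases Mmp2 (133 and 171) and Mmp9 (51.8 and 77.8), the membrane protease Mmp14 (40.1 and 75.4) and Ctsl (611 and 501) differed by less than 2-fold. The elastolytic cathepsins Ctsk (72.5 FPKM) and Ctss (390) had ICR values and no gerbil value. Of 6 inhibitors 4 were measured, with a median of 0.84 as deposited, 0.055 under the ribosomal and housekeeping scaling and -2.17 under the scaling to all ribosomal protein genes. Timp1 was level at 169 and 166 FPKM, Timp2 was at 81.8 and 110, Serpinb1a at 28.3 and 69.6, and Timp3 at 3.81 and 22.9, past 4-fold as deposited but not with a pseudocount of 5 FPKM or under either ribosomal scaling. Slpi, the secreted inhibitor of neutrophil elastase (486 FPKM in ICR), and Cst3 (493) had no gerbil value.

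**Figure D5:**
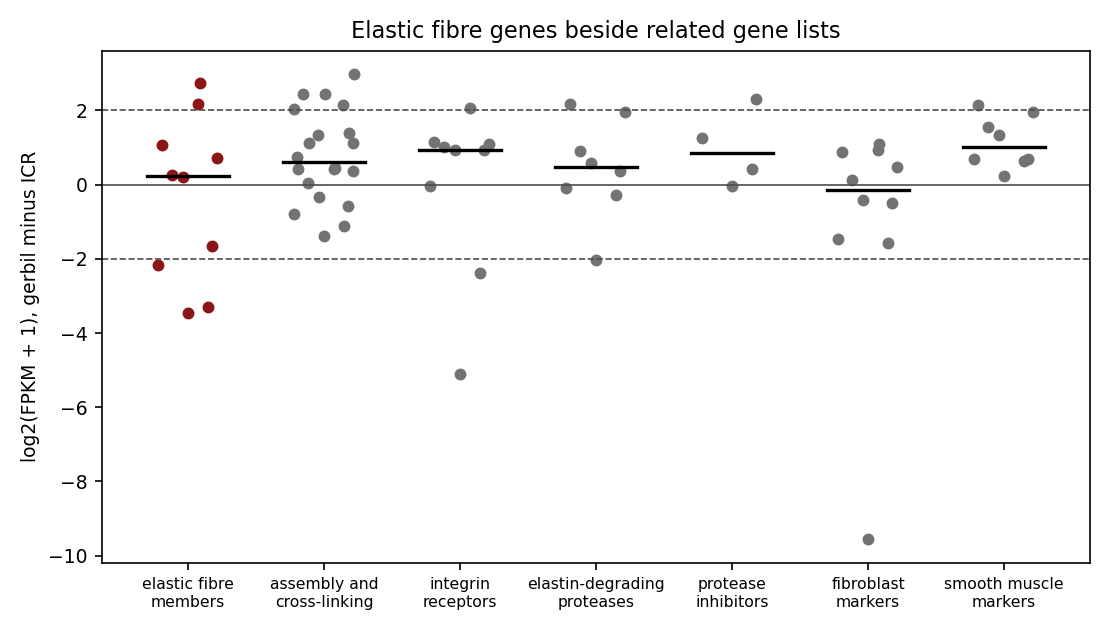
Difference in log2(FPKM + 1), gerbil minus ICR, of each measured gene of the elastic fibre set (red) and 6 related lists (grey), with black bars at list medians and dashed lines at 4-fold. The elastic fibre genes run from -3.46 to 2.74, and the 8 smooth muscle markers lie above 0 as deposited, though not under the scaling to all ribosomal protein genes.

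Markers of the cells that make elastic fibres are given beside these values. In bulk tissue, fewer cells of a type and less RNA per cell cannot be told apart. Of 10 fibroblast markers 5 were higher and 5 lower in gerbil, with a median of -0.14 and 1 at least 4-fold lower, against 7.41% of protein-coding symbols. That marker was Col3a1 (1794 and 1.37 FPKM, on a match of 9e-14), the most abundant of the list in ICR, ahead of Col1a1. The summed levels of the list were 3634 FPKM in ICR against 1822 in gerbil. Without Col3a1 the sums were 1839.6 and 1820.3 FPKM, nearly level as deposited. In these sums Col1a1 (567 and 203, on a match of 3e-138) was lower in gerbil and Col1a2 (502 and 1079) higher. Under the ribosomal and housekeeping scaling 3 of the 10 were higher and 7 lower, with 3 at least 4-fold lower and a median of -0.89. Under the scaling to all ribosomal protein genes 0 were higher, 9 were at least 4-fold lower and the median was -2.73. All 8 smooth muscle markers were higher in gerbil as deposited, with a median of 1.01 and summed levels of 135 and 381 FPKM; the most abundant in ICR were Acta2 (42.5 and 169) and Des (40.5 and 66.3). The gerbil value of Acta2 was also listed for 9 other genes, among them the cytoplasmic actin Actb (1789 FPKM in ICR). Without Acta2 the sums were 92.4 and 213 FPKM. Under the ribosomal and housekeeping scaling 6 of those 8 were higher, and under the scaling to all ribosomal protein genes 0 were. Eln was higher in the same library as the smooth muscle markers, and their part in its value was not tested.

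Other cell types were represented in both libraries. The 7 measured endothelial markers of 8 had a median of 0.41, with 5 higher and 2 lower in gerbil. They were led in ICR by Egfl7 (26.4 and 2.26 FPKM) and Pecam1 (10.7 and 21.9). The Egfl7 match was at 1e-128, and its gerbil value was shared by 11 rows. The 8 keratinocyte markers had a median of -0.20, with 3 higher and 5 lower in gerbil. The most abundant in ICR were Krt5 and Sfn (2813 and 2138). Past 4-fold, 1 was higher in gerbil and 2 were lower, against 9.77% and 7.41% of protein-coding symbols. The higher one, Krt14, was listed at 0 in ICR. The lower ones were Krt10 (1107 and 268 FPKM, on a match of 4e-83) and Trp63 (57.6 and 1.59, on a match of 5e-126). The 7 measured skeletal muscle markers of 8 had a median of 0.17, led in ICR by Mylpf (70.4 and 177) and Ckm (58.6 and 66.1). Of these 7, 2 (28.6%) were past 4-fold on the gerbil side and 1 (14.3%) on the ICR side, against 9.77% and 7.41% of protein-coding symbols. They were Actn3 (5.66 and 68.6 FPKM) and Myh4 (12.3 and 63.6), higher in gerbil, and Atp2a1 (36.2 and 0.31), lower. The 7 measured leukocyte markers of 8 had a median of 0.51, led among those measured in ICR by Cd14 (1332 and 784) and Csf1r (77.6 and 111), while Cd68 (202 FPKM in ICR) had no gerbil value. Of the 7, 4 were higher and 3 lower in gerbil as deposited. Past 4-fold on the gerbil side were 2, against 9.77% of protein-coding symbols. They were Itgam (71.5 and 797 FPKM, on a match of 1e-102 and with a value shared by 14 rows) and Fpr1 (29.5 and 141). Csf3r was lower in gerbil (55.1 and 15.7 FPKM), and Cxcr2 was nearly level (67.0 and 64.0). Summed levels in ICR and gerbil were 48.8 and 39.4 FPKM for endothelial, 11455 and 35907 for keratinocyte, 267 and 434 for skeletal muscle and 1662 and 1957 for leukocyte markers. Egfl7 differed by more than the endothelial sum did, so the other endothelial markers together were higher in gerbil as deposited. Krt14 was at 18470.5 FPKM in gerbil, a value shared by 5 rows, and without it the keratinocyte sums were 11455 and 17437.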

How the data were processed

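Libraries of wounded skin, 1 gerbil and 1 ICR, taken 3 days after wounding, were made with a TruSeq RNA kit, per the labels' protocols. The authors deposited FPKM for both libraries, per the file headers, which describe the gerbil column as measured after assembly and pair it with an expectation value, a score of how easily a match arises by chance. The assembler and the search program are not stated in the labels or headers. Per the submitters' processing notes, the tools were STAR 2.4.0b, Cufflinks 2.2.1, RSEM 1.2.19 and CASAVA, with the build GRCm38.p2 and no role stated.

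From these, log2(FPKM + 1) differences were computed, which understate differences of low genes. Where a symbol had several rows, the row with the highest mean stood for it. No test was possible with 1 library a species. Named genes were all 10 members, pathway genes at 10 FPKM or more in either library or past 4-fold, genes sharing a member's gerbil value of 10 FPKM or more, and the 2 most abundant markers of each cell type in ICR. Ltbp1, Ltbp2, Fbln7, Gm9913, Mapk7, Krt1, Krt14, Actb, Itgam, Fpr1, Col1a2, Csf1r and Fibcd1 were named after their values were seen. So were Csf3r, Cxcr2, Krt10, Trp63, Actn3, Myh4, Atp2a1, Rps6, Gapdh, Rpl4 and Ywhaz. Members and lists were chosen with earlier results of these data known. The trimmed mean left out 30% of log ratios and 5% of mean levels at each end. Sequences came from GENCODE M21 coding transcripts of 21901 genes, the longest coding sequence standing for a gene, since a table of proteins was not used here. They were searched with blastn 2.17.0 (expectation value of 1e-05 or less, at least 100 bases), and encoded proteins were aligned end to end with biopython 1.88 (BLOSUM62, gap penalties 11 and 1). The procedure was tested on simulated gerbil values drawn around the ICR values, to see that known fold changes and a known shift were recovered. The simulation held no assembly, weak matches, shared values or missing genes, so it does not test the match between species. Python 3.11.15, numpy 2.4.6, pandas 2.3.3 and matplotlib 3.10.9 were used. Of the table's rows, 221 had no usable value in either library.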

Additional observations from a re-analysis of the deposited data

How the results depend on the processing

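Efemp2, Fbn1 and Mfap5 kept their direction and their side of 4-fold under both other pseudocounts and every scaling. Each scaling lowered gerbil, so none could turn genes already lower as deposited. No paired analysis was possible because there was 1 gerbil and 1 ICR library, which also left none to drop. With a pseudocount of 5 FPKM, Fbln5 was at 1.405, leaving 1 gene past 4-fold on the gerbil side. Under the ribosomal and housekeeping scaling Eln was at 1.96, Fbln5 at 1.44, Fbln2 at -2.43, Fbn2 at -0.26, Fbln1 at -0.068 and Mfap2 at -0.49, the median was -0.38, and 0 genes were past 4-fold on the gerbil side. Under the scaling to all ribosomal protein genes, chosen after the data were seen, Eln was at -0.23, Fbln5 at -0.39, Fbln2 at -4.47, Fbn2 at -1.02, Fbln1 at -2.23, Mfap2 at -2.45 and Mfap4 at -1.60; the median was -2.34, with 0 genes past 4-fold on the gerbil side and 6 on the ICR side. The 2 genes with a gerbil value of their own had 0 past 4-fold on either side and a median of 0.89. The genes matched at 0 had 1 past 4-fold on the ICR side, and an 8-fold rule left 0 on the gerbil side. The share of symbols past 4-fold in either direction was 31.4%, 17.2% for protein-coding ones, 11.9% for those at 1 FPKM in both libraries and, in a subset chosen after the data were seen, 12.1% for those matched at 0. Restricted sets hold fewer genes by construction; otherwise the cause was not tested. Depth was unknown, so counting error cannot be given.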
